A study of Mus musculus with 48 samples.

Results

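The collagen genes and the enzymes that process collagen were described in whole spinal cord of young, old and old repopulated mice, with sorted brain microglia beside them. Members were every gene of the count table whose symbol has the form of a collagen chain gene (Col, type number, chain number), together with Lox, Loxl1 to Loxl4, P4ha1 to P4ha3, Plod1 to Plod3 and Serpinh1. This gave 56 of 35870 genes, of which 44 are collagens and 12 are enzymes or a chaperone. The collagens were split by structure into 11 fibrillar chains, 6 chains of the basement membrane collagen type IV and 27 other chains.

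All mice were C57BL/6 wild type males. Young mice were 3 months old and old mice 23 months old, and both received vehicle. The repopulated mice were 23 months old and received a Csf1r inhibitor for 5 days, which depletes microglia, after which microglia returned during 7 days free of the drug. Each of the 3 groups had 8 libraries of spinal cord and 8 of microglia sorted from brain as Cd11b and Cd45 positive cells, 48 libraries in all. Whether each library comes from a mouse of its own is not stated in the labels, so p-values measure only the spread between these libraries, which may be technical. No group of the design combines young age with the inhibitor.

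Collagens are made as procollagen chains in the endoplasmic reticulum, where prolyl 4-hydroxylases (P4ha) stabilise the triple helix, lysyl hydroxylases (Plod) prepare sites for cross-links, and the chaperone Serpinh1 (Hsp47) holds the folded helix until export. Outside the cell the propeptides are removed, fibrillar chains assemble into fibrils, and lysyl oxidases (Lox and Loxl) start the covalent cross-links between molecules. In the spinal cord, fibrillar collagen lies mostly in the meninges, the nerve roots and around vessels, and type IV collagen lies in the basement membranes of vessels, of the pial surface and of Schwann cells in the roots.

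Young cord libraries held between 23756093 and 32172147 counts, old ones between 22802459 and 31075737 and repopulated ones between 15909868 and 33004806, and microglia libraries between 18741936 and 34496308. Levels are counts relative to library size (CPM), scaled between libraries by TMM, given as the lowest, median and highest of 8 libraries or as mean ± SD. One library, repopulated cord replicate 6, stood apart from the other 7 of its group. Its fibrillar members summed to 735.8 CPM and its type IV members to 196.1 CPM, against 1019 to 1248 and 305.6 to 396.0 CPM in the others, and its oligodendrocyte markers summed to 29260 CPM against 15070 to 18840 CPM. Repopulated cord replicate 3 held skeletal muscle markers at a summed 3505 CPM, against 6.88 to 142.3 CPM in the other 7. Microglia markers in sorted microglia summed to 30330 CPM or more in all 24 libraries, and to 163.6 to 367.5 CPM in cord.

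Per length, Col1a2 was the most abundant member in cord, at 170.9 ± 37.0 TPM (counts divided by gene length and scaled to a fixed library total, mean ± SD of 24 libraries). It was followed by Serpinh1 (91.4 TPM), both type IV chains Col4a1 (69.8 TPM) and Col4a2 (69.1 TPM), Col1a1 (68.6 TPM) and Col3a1 (63.3 TPM). Neighbours in this order from Col4a1 to Col3a1 differed by less than their SD. Col10a1, a chain of growth plate cartilage, and Col17a1, a transmembrane chain of skin hemidesmosomes, had means of 0.114 and 0.11 TPM and did not pass the filter on low counts, which left 54 members tested in cord.

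Between old and young cord, 6 of the 54 members tested rose, 4 fell and 44 did not pass the test. The risers were 3 fibrillar chains (Col27a1, Col5a2, Col2a1) and 3 other chains (Col16a1, Col18a1, Col22a1). The genes that fell were the cross-linking enzyme Lox, the prolyl hydroxylase P4ha1, the type IV chain Col4a1 and Col26a1. The share of members called higher was 11.1% against a background of 4.88% of all 18271 genes tested, and the share called lower was 7.41% against 1.26%. The median log2 fold change was 0.00 over the members and -0.01 over all genes. At an unadjusted p under 0.05 there were 18 members, and all genes under that p were not counted, so this number has no background. The ranges of old and young libraries did not overlap for 3 members that were higher and 2 that were lower, where 2.45% and 0.608% of all genes tested had no overlap. Calls are those of edgeR's quasi-likelihood test at a Benjamini-Hochberg adjusted p under 0.05 over all genes. In whole tissue, fewer cells of a type and less RNA per cell cannot be told apart.

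**Figure D1:**
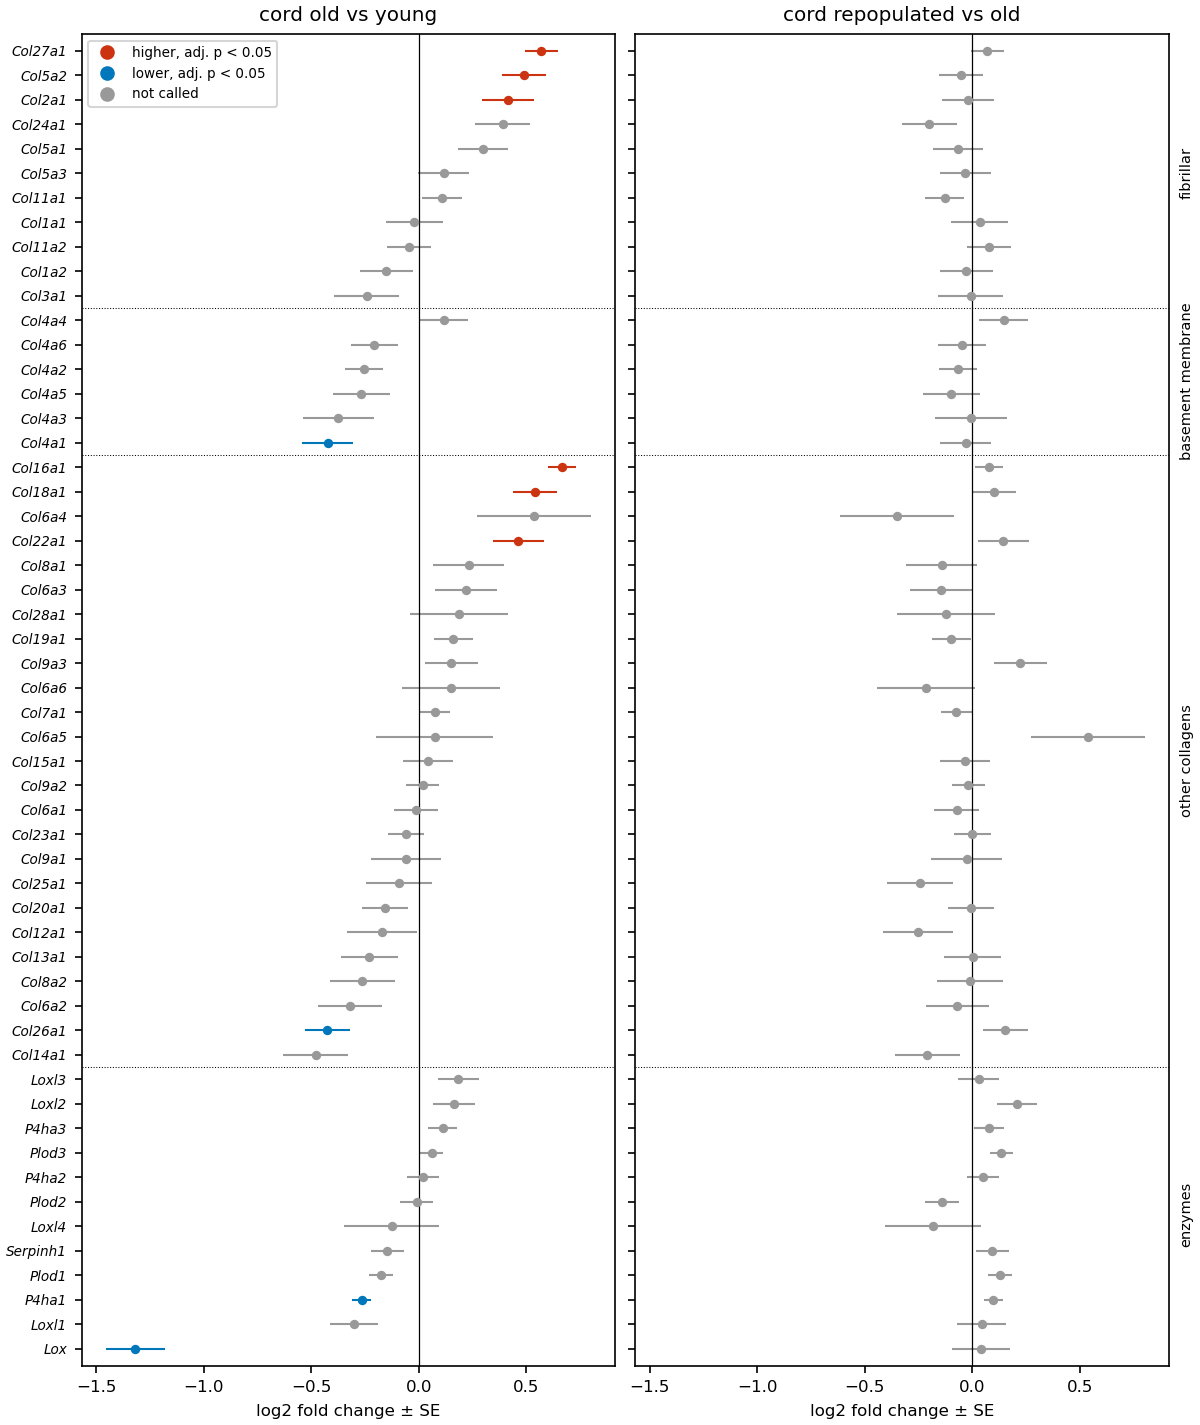
Log2 fold change with its standard error for each of the 54 members tested in cord, by class, for old against young (left) and repopulated against old (right). Red and blue points passed the test in old against young, 6 higher and 4 lower, and no point did in repopulated against old.

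The abundant fibrillar chains did not pass the test between old and young cord, though Col1a1 and Col1a2 were called higher with the Schwann marker sum as a covariate, as described with the markers. Col1a2, the second chain of collagen I, ran from 261.2 over a median of 360.0 to 398.7 CPM in young, from 220.0 over 311.9 to 375.6 CPM in old and from 193.8 over 287.4 to 380.8 CPM in repopulated cord. Col1a1, the chain of which collagen I holds a pair, ran from 110.9 over 152.0 to 175.6, from 102.2 over 142.9 to 184.8 and from 96.0 over 139.1 to 179.9 CPM. Col3a1, the chain of collagen III, ran from 93.8 over 145.2 to 178.4, from 87.2 over 112.5 to 160.3 and from 74.5 over 112.5 to 147.3 CPM. The 3 groups overlapped for each of these chains. Their log2 fold changes, old against young, were -0.15 ± 0.12 (SE) for Col1a2, -0.02 ± 0.13 for Col1a1 and -0.24 ± 0.15 for Col3a1, with adjusted p of 0.672, 0.977 and 0.503 in edgeR's quasi-likelihood test. The spread within the young group was large for these chains. Young replicates 3, 6 and 8 were its 3 lowest libraries for Col1a1, Col1a2 and Col3a1 alike, with Col1a1 at 110.9, 111.0 and 113.9 CPM against 149.0 to 175.6 CPM in the other 5.

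The fibrillar chains that rose were minor ones. Col27a1, a fibrillar chain best known from cartilage and other developing connective tissue, ran from 25.2 over 29.2 to 31.4 CPM in young, from 34.6 over 44.4 to 49.98 CPM in old and from 39.1 over 44.4 to 57.5 CPM in repopulated cord. Every old library lay above every young one, with a log2 fold change of 0.57 ± 0.08 (adjusted p = 1.06e-05, edgeR's quasi-likelihood test). Col5a2, a chain of collagen V, which sits inside collagen I fibrils and limits their width, ran from 48.1 over 57.2 to 63.1 CPM in young, from 58.9 over 80.9 to 94.2 CPM in old and from 50.9 over 77.9 to 93.5 CPM in repopulated cord. Here the groups overlapped, and the log2 fold change was 0.49 ± 0.10 (edgeR adjusted p = 0.0028). Its partner chain Col5a1 had a mean of 62.2 ± 8.59 CPM in young cord against 76.6 ± 12.2 CPM in old cord (n = 8 each) and did not pass (0.30 ± 0.12, edgeR adjusted p = 0.164). It was called higher with each marker covariate described below. These were the Schwann sum (0.83, edgeR adjusted p = 9.68e-05), the fibroblast sum (0.45, 0.0208) and the mean log2 Schwann level (0.25, 0.0317).

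Col2a1, the main chain of cartilage collagen, was low, running from 3.74 over 4.69 to 6.62 CPM in young, from 5.35 over 6.41 to 7.91 CPM in old and from 4.93 over 6.04 to 8.47 CPM in repopulated cord. Its rise of 0.42 ± 0.12 (edgeR adjusted p = 0.037) rested on overlapping groups. Leaving out any 1 of 10 libraries took it past the threshold, to an adjusted p of 0.0562 to 0.0994 in edgeR's test. These were young replicates 1, 3, 4, 6 and 7 and old replicates 1, 2, 3, 5 and 7. The other members of the class, Col5a3, Col11a1, Col11a2 and Col24a1, did not pass, with Col24a1 the nearest (0.39 ± 0.13, edgeR adjusted p = 0.0779).

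Promoter sequence is shown for a fibrillar chain that rose and for an abundant one that did not pass the test. Each window holds the 150 bases before a RefSeq start (build GRCm38.p6, 5′ to 3′ on the gene's strand), and neither overlaps an exon of the GENCODE M21 annotation. The Col27a1 window, chr4:63215262-63215411 on the plus strand, lies in the first intron of a longer annotated transcript, and the Col3a1 window, chr1:45311388-45311537 on the plus strand, ends just before the gene's first base. Capitals mark the letters GGGCGG, the core of a GC box, in the first and TATAAA, the letters of a TATA box, in the second.
Col27a1: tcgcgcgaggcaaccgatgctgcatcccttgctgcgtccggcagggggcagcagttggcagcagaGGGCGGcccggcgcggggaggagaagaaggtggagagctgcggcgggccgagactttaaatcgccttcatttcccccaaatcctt
Col3a1: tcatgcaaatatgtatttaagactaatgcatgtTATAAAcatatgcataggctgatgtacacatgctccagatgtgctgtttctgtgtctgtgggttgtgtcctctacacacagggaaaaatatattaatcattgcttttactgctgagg

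RefSeq promoter entries matched 42 of the 56 members, with 45 windows of this length. GGGCGG was found on either strand in 53.3% of the members' windows and in 28.6% of all 32851 windows. TATAAA was found in 8.89% and 7.57%, and CCAAT in 17.8% and 24.5%. Each motif was searched on both strands, and matches of CCAAT on the other strand can share letters with GGGCGG. A match describes letters only.

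Of the 6 basement membrane chains 1 fell between old and young cord, none rose and 5 did not pass, with estimates from -0.42 for Col4a1 to 0.12 for Col4a4. Col4a1, which with Col4a2 forms the collagen network of nearly all basement membranes, ran from 190.8 over 225.4 to 261.6 CPM in young, from 130.6 over 172.4 to 196.0 CPM in old and from 86.4 over 163.8 to 197.0 CPM in repopulated cord. The young and old ranges met only at their ends, and Col4a1 fell by 0.42 on the log2 scale (SE 0.12, edgeR adjusted p = 0.0274). This call was lost when any 1 of 7 libraries was left out, with an adjusted p of 0.0519 to 0.0624 in edgeR's test. These were young replicates 1, 2, 5 and 7 and old replicates 5, 6 and 8.

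Col4a2, the chain whose gene lies head to head with Col4a1, ran from 161.0 over 175.1 to 212.3 CPM in young, from 125.6 over 154.4 to 169.4 CPM in old and from 94.8 over 146.5 to 169.8 CPM in repopulated cord. It did not pass between old and young (-0.26 ± 0.09, adjusted p = 0.0958 in edgeR's quasi-likelihood test) and was lower in repopulated than in young cord (-0.32 ± 0.09, adjusted p = 0.0168). Col4a5, a chain of the specialised type IV networks, ran from 16.5 over 19.3 to 26.1, from 14.1 over 16.4 to 19.8 and from 7.30 over 16.7 to 18.7 CPM, with overlapping groups and no call. Repopulated replicate 6 was the lowest library of its group for all 6 type IV chains. That library also enters the old against young comparison through the shared estimate of the spread. Without it, Col4a2 (edgeR adjusted p = 0.00831), Col4a5 (0.0369), Col14a1 (0.0132) and Plod1 fell as well, and 8 members in place of 4 were called lower. Over all genes tested, 681 of 18401 were then called lower, in place of 231 of 18271.

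**Figure D2:**
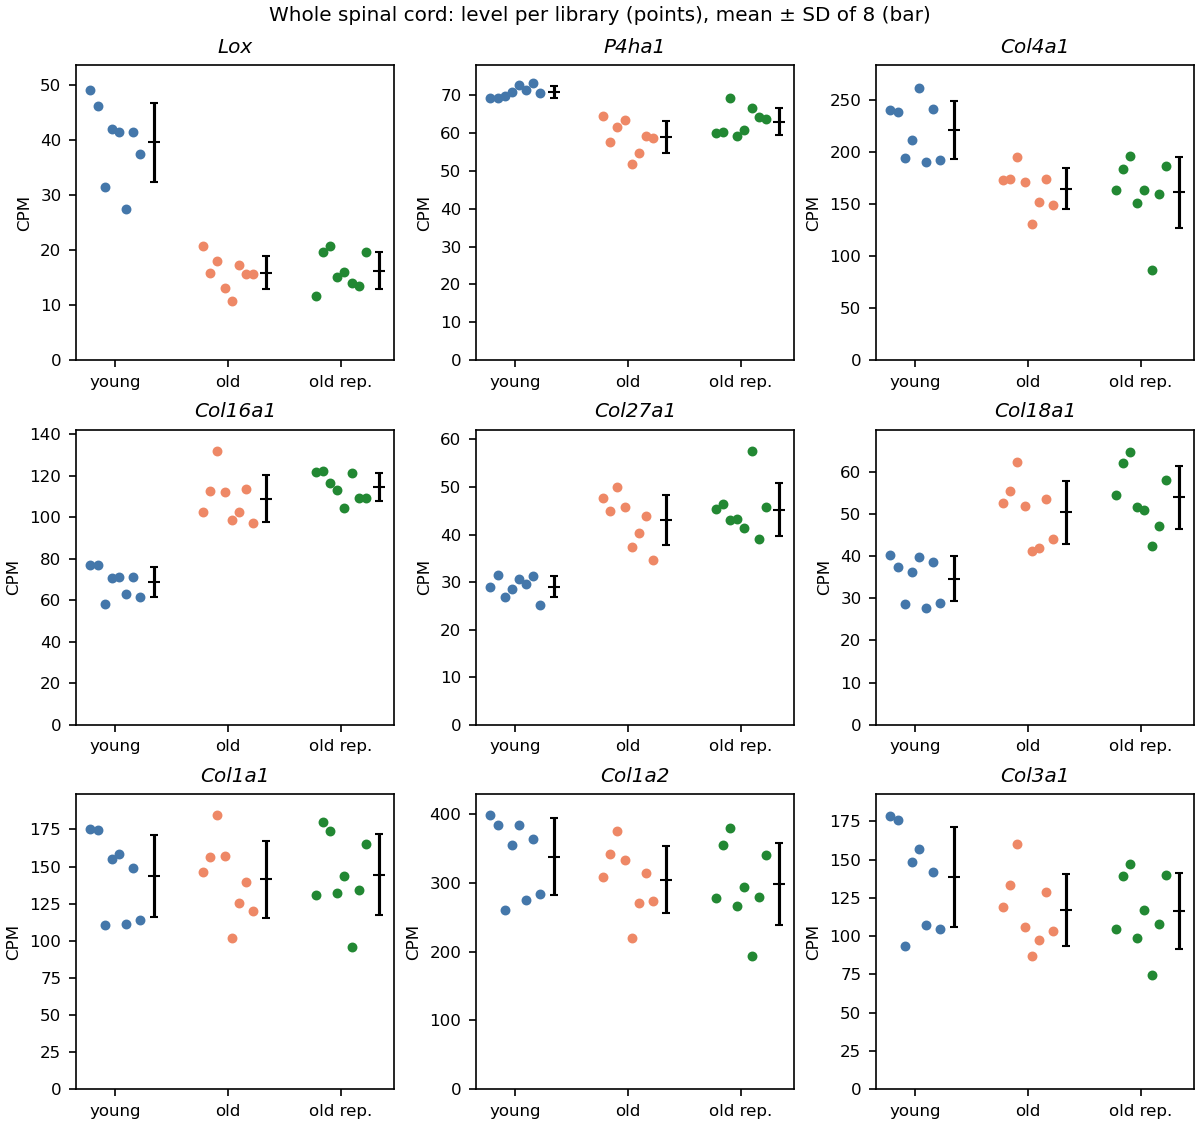
Level in CPM of 9 members in each cord library, with the mean ± SD of 8 libraries as the bar beside each group. Lox is lower, and Col16a1, Col27a1 and Col18a1 are higher, in every old than in every young library, while the groups overlap for Col1a1, Col1a2 and Col3a1.

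Among the other collagens 3 of the 25 tested rose, 1 fell and 21 did not pass. Col16a1 (Entrez gene 107581, chr4:130047817-130099277 in GRCm38.p6), a fibril-associated chain with interrupted triple helices, ran from 58.4 over 71.0 to 77.04 CPM in young, from 97.4 over 107.5 to 131.7 CPM in old and from 104.4 over 114.8 to 122.3 CPM in repopulated cord. All 16 libraries of old mice lay above all 8 young ones. Its log2 fold change of 0.66 ± 0.07 (adjusted p = 8.13e-08, edgeR's quasi-likelihood test) had the smallest adjusted p of all members in this comparison. Col18a1 (chr10:77052178-77166530), a basement membrane proteoglycan chain and the source of endostatin, ran from 27.6 over 36.8 to 40.4, from 41.2 over 52.3 to 62.3 and from 42.4 over 53.0 to 64.8 CPM. It too was higher in every old and repopulated library than in any young one, by 0.54 ± 0.10 in old (edgeR adjusted p = 0.00093).

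Col22a1, a chain of tissue junctions such as that between muscle and tendon, was low, running from 3.21 over 4.53 to 5.42, from 5.27 over 5.93 to 7.30 and from 5.48 over 6.52 to 9.42 CPM. Its old and young ranges overlapped at their ends, and it rose by 0.46 ± 0.12 (edgeR adjusted p = 0.0156). Col26a1 ran from 9.60 over 11.96 to 14.3, from 7.37 over 8.95 to 9.98 and from 7.69 over 9.62 to 13.98 CPM, and fell by 0.43 (SE 0.10, edgeR adjusted p = 0.0104). Col14a1, a fibril-associated chain found on collagen I fibrils, ran from 30.5 over 39.8 to 51.5, from 19.0 over 29.2 to 34.3 and from 13.0 over 24.8 to 34.1 CPM. It just missed the threshold in old cord (-0.48 ± 0.15, edgeR adjusted p = 0.0601) and passed it in repopulated against young cord (-0.69 ± 0.15, adjusted p = 0.00273).

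The most abundant of the other chains per length after Col16a1 were Col23a1, a transmembrane collagen, and Col6a1, a chain of the beaded filaments of collagen VI. Col23a1 ran from 83.3 over 102.4 to 117.0, from 76.3 over 98.95 to 108.9 and from 78.0 over 96.6 to 120.2 CPM, and Col6a1 from 41.3 over 53.0 to 62.2, from 40.1 over 52.8 to 63.0 and from 41.7 over 46.6 to 60.7 CPM. In the test without covariates neither passed in any comparison of cord, with log2 fold changes of -0.06 ± 0.09 and -0.01 ± 0.10 in old against young. With the Schwann marker sum as a covariate, Col23a1 was called higher in old cord (0.39, edgeR adjusted p = 0.00189). No chain of collagen VI passed without covariates, although the estimates ran from -0.32 ± 0.15 for Col6a2 to 0.54 ± 0.27 for Col6a4. Col6a3 was called higher with the Schwann sum (0.72, edgeR adjusted p = 0.0261). Col6a2 was called lower with the mean log2 level of the same markers (-0.35, edgeR adjusted p = 0.0285).

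Among the enzymes 2 of 12 fell, none rose and 10 did not pass in old against young cord, and both that fell did so with no overlap between the groups. Lox (Entrez gene 16948), the founding lysyl oxidase, ran from 27.4 over 41.5 to 49.0 CPM in young, from 10.8 over 15.7 to 20.7 CPM in old and from 11.6 over 15.6 to 20.7 CPM in repopulated cord. Its means were 39.5 ± 7.19, 15.9 ± 3.01 and 16.3 ± 3.35 CPM (SD, n = 8 each). The log2 fold change was -1.32 ± 0.14 in old and -1.28 ± 0.14 in repopulated against young cord (adjusted p = 1.8e-07 and 2e-07, edgeR's quasi-likelihood test), the largest in either direction among the members tested. None of the related oxidases passed the test without covariates in old cord. Loxl1, Loxl2, Loxl3 and Loxl4 had log2 fold changes of -0.30 ± 0.11, 0.16 ± 0.10, 0.18 ± 0.09 and -0.13 ± 0.22. Without young replicate 6, Loxl1 was called lower as well. With the Schwann marker sum as a covariate, Loxl2 and Loxl3 were called higher (0.49 and 0.60, edgeR adjusted p = 0.02 and 0.000422).

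P4ha1, a catalytic subunit of prolyl 4-hydroxylase, ran from 69.1 over 70.7 to 73.1 CPM in young, from 51.9 over 58.9 to 64.4 CPM in old and from 59.3 over 62.1 to 69.3 CPM in repopulated cord. Its young libraries were close together (70.8 ± 1.49 CPM), and all 8 old libraries lay below them. The fall was small, 0.27 on the log2 scale (SE 0.04, edgeR adjusted p = 0.000168). The other catalytic subunits, P4ha2 and P4ha3, had log2 fold changes of 0.02 ± 0.08 and 0.11 ± 0.07 and did not pass.

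Serpinh1, the collagen chaperone, ran from 72.4 over 85.4 to 93.6, from 58.5 over 74.6 to 90.9 and from 71.7 over 79.2 to 92.3 CPM, with overlapping groups (-0.15 ± 0.08, edgeR adjusted p = 0.373). The lysyl hydroxylase Plod1, which acts on the helix, ran from 54.6 over 62.8 to 68.6, from 48.6 over 54.7 to 61.0 and from 53.3 over 59.2 to 66.1 CPM and stayed short of the threshold (-0.18 ± 0.06, edgeR adjusted p = 0.067). Plod3, a lysyl hydroxylase that also adds sugars, ran from 38.0 over 41.8 to 44.6, from 40.3 over 43.1 to 48.4 and from 42.2 over 46.5 to 59.0 CPM. Loxl2, an oxidase that acts on type IV collagen, ran from 4.43 over 5.35 to 5.75, from 4.21 over 5.94 to 6.89 and from 6.01 over 6.62 to 7.90 CPM. In the test without covariates both were called only in repopulated against young cord. They were higher there by 0.19 ± 0.05 and 0.37 ± 0.10 (adjusted p = 0.0222 and 0.0119 in edgeR's test). Exons of Plod3 and Loxl3 overlap those of a gene on the other strand over 11.7% and 11.6% of their length, and those of Loxl2 over 5.57%, and the library kit does not keep the strand.

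No member passed the test between repopulated and old cord. None of 54 was called and none had libraries without overlap, where 0.148% of all genes tested were called higher and 0% lower, and 0.0493% had no overlap, and the smallest adjusted p was 0.681 in edgeR's quasi-likelihood test. DESeq2 called none either. At an unadjusted p under 0.05 there were 4 members (P4ha1, Plod1, Plod3 and Loxl2, with log2 fold changes of 0.10 ± 0.04, 0.13 ± 0.06, 0.14 ± 0.05 and 0.21 ± 0.10). All 4 are enzymes, but the share of all genes under that p was not counted, so no pattern is read from them. The log2 fold changes of the 54 ran from -0.35 for Col6a4 to 0.54 for Col6a5, both of which had means of 2.35 CPM or less. For Lox the value was 0.04 ± 0.14 and for Col16a1 0.08 ± 0.07. A p that misses the threshold does not show that the groups were alike.

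Against young cord, 8 members were higher in repopulated cord and 5 were lower, 14.8% and 9.26% of those tested, where 7.28% and 2.78% of all genes were called. The libraries did not overlap for 5 members that were higher (Col16a1, Col18a1, Col22a1, Col27a1 and Loxl2) and 1 that was lower (Lox), where 2.96% and 0.651% of all genes had no overlap. The young libraries are shared with the comparison of old against young. Besides Col27a1 (0.64 ± 0.08), Col5a2 (0.44 ± 0.10), Col2a1 (0.39 ± 0.12), Col16a1 (0.74 ± 0.07), Col18a1 (0.64 ± 0.10) and Col22a1 (0.61 ± 0.12), the higher ones were Plod3 and Loxl2. The lower ones were Lox, P4ha1 (-0.17 ± 0.04), Col4a1 (-0.45 ± 0.12), Col4a2 and Col14a1. For Col2a1 this call also went when any 1 of 8 libraries was left out (young replicates 1, 3, 4, 6 and 7, repopulated replicates 2, 5 and 8), with an edgeR adjusted p of 0.0522 to 0.0966. Without repopulated replicate 6, Col26a1 and Col4a5 were lower too (adjusted p = 0.00528 and 0.0418).

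Chains that join in one molecule or share a type were set against each other within each library, as the ratio of their counts per length. This ratio does not depend on the scaling between libraries. Of 7 pairs in 3 comparisons, 13 of 21 differences had an adjusted p under 0.05 (exact two-sided permutation test over all 12870 splits of 8 against 8, Benjamini-Hochberg over the 21; the smallest p it can give is 0.000155). Of these, 12 set young against old or repopulated cord. Ratios of other gene pairs were not tested, so these counts have no background and are not shown to be particular to collagen chains.

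The ratio of Col1a1 to Col1a2 ran from 0.353 over 0.368 to 0.399 in young, from 0.386 over 0.408 to 0.433 in old and from 0.403 over 0.428 to 0.446 in repopulated cord. It was higher in old than in young cord by 0.13 on the log2 scale (exact permutation, adjusted p = 0.0028) and higher in repopulated than in young by 0.20 (adjusted p = 0.00163). All 8 repopulated libraries lay above all 8 young ones, although neither chain passed the test alone. The difference between repopulated and old cord, 0.07 (exact permutation, adjusted p = 0.0276), was the only one of the 7 pairs called there. It was lost without old replicate 7 or 8 or repopulated replicate 2 or 4, with an adjusted p of 0.0502 to 0.0552.

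Col4a1 to Col4a2 ran from 0.999 over 1.07 to 1.15 in young, from 0.899 over 0.960 to 1.001 in old and from 0.788 over 0.976 to 1.09 in repopulated cord. The log2 ratio differed from that of young cord by -0.17 in old (exact permutation, adjusted p = 0.00196) and by -0.15 in repopulated cord (adjusted p = 0.0124). Repopulated replicate 6 was the lowest library, and without it the ratio was higher in repopulated than in old cord by 0.07 (exact permutation, adjusted p = 0.0466). The ratio of the minor chains Col4a3 to Col4a4 had means of 0.743 ± 0.155, 0.524 ± 0.0808 and 0.476 ± 0.0780 in young, old and repopulated cord (SD, n = 8 each), and differed between old and young by -0.49 on the log2 scale (exact permutation, adjusted p = 0.0102). Exons of another gene on the other strand cover 5.65% of Col4a3. The ratio of Col4a5 to Col4a6 had means of 5.27 ± 0.570, 5.06 ± 0.392 and 4.84 ± 0.686 and was not called in any comparison.

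Col5a1 to Col5a2 ran from 0.810 over 0.835 to 0.991 in young, from 0.699 over 0.763 to 0.807 in old and from 0.671 over 0.735 to 0.845 in repopulated cord. Every old library lay below every young one, a difference of -0.19 on the log2 scale (exact permutation, adjusted p = 0.00163). Col6a1 to Col6a2, 2 chains of collagen VI, had means of 1.93 ± 0.285, 2.33 ± 0.265 and 2.32 ± 0.276 and was higher in old than in young by 0.28 (exact permutation, adjusted p = 0.0199). Col8a1 to Col8a2, the chains of a network collagen of vessels and Descemet's membrane, had the largest shift among the called ratios of old against young. It ran from 0.722 over 0.817 to 0.899 in young, from 0.859 over 1.20 to 1.35 in old and from 0.860 over 1.03 to 1.31 in repopulated cord, higher in old by 0.51 (exact permutation, adjusted p = 0.00196). In old cord 1 library, and in repopulated cord the lowest, reached into the young range.

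**Figure D3:**
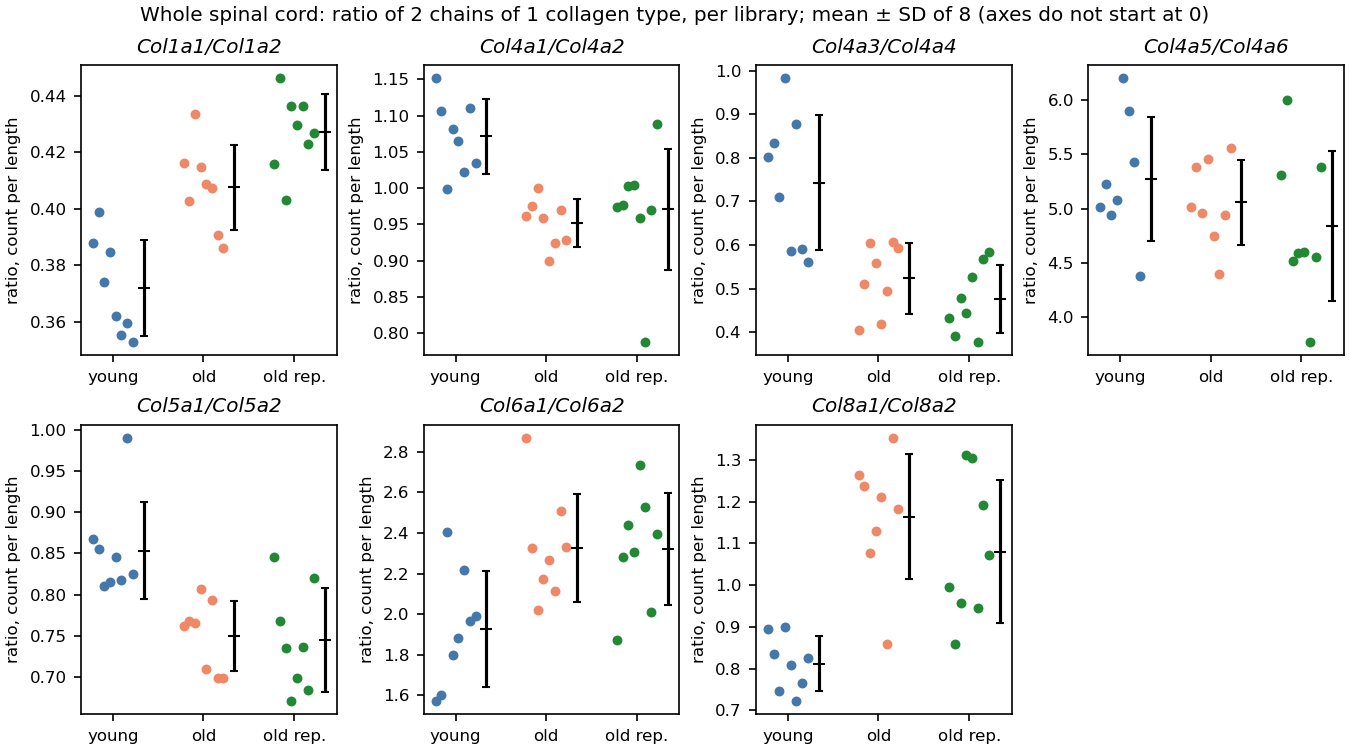
Ratio of the counts per length of 2 chains in each cord library for the 7 pairs, with the mean ± SD of 8 libraries as the bar (each axis has its own range and does not start at 0). The Col1a1 to Col1a2 and Col8a1 to Col8a2 ratios are higher and the Col5a1 to Col5a2 ratio is lower in most old and repopulated than in young libraries.

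Libraries of 1 group differed in their class sums. The 3 young libraries low in collagen I and III were low in the summed fibrillar class (889.4, 918.9 and 903.1 CPM against 1102 to 1234 CPM in the other 5) and in the summed type IV class (393.3, 380.9 and 382.7 CPM against 411.9 to 510.7 CPM). Old replicate 5 had the lowest fibrillar, type IV, other collagen and enzyme sums of its group, and old replicate 3 the highest of all 4. Over whole groups the fibrillar sums overlapped widely, with medians of 1116, 1137 and 1056 CPM in young, old and repopulated cord, while those of type IV were 431.4, 353.8 and 339.3 CPM.

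Markers of cells that make collagen differed between the groups as well. The 10 markers of Schwann cells, which wrap the axons of the roots and lay a type IV basement membrane, summed to 5054 to 7487 CPM in young, 3302 to 5533 CPM in old and 3646 to 5090 CPM in repopulated cord. The sum, which follows the most abundant markers, was lower in old cord at both ends of its range, while 6 of the 10 log2 fold changes of old against young lay above 0 and their median was 0.16. Egr2, a transcription factor of myelinating Schwann cells, had the highest estimate (0.42 ± 0.13, edgeR adjusted p = 0.0642) and did not pass.

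With the Schwann sum as a covariate, 13 members were higher and 1 lower in old against young cord, and the log2 fold change of Col4a1 became 0.02 (edgeR adjusted p = 0.984). Over all 18271 genes tested, 1109 were higher and 179 lower with this covariate, against 892 and 231 without it. Col1a1 and Col1a2, which did not pass without it, were then called higher, at 0.63 and 0.46 (edgeR adjusted p = 0.00377 and 0.029). So were Col5a1, Col6a3, Col15a1, Col23a1, Loxl2 and Loxl3, while Col2a1 and Col26a1 lost their calls. With the mean log2 level of the 10 markers as the covariate, which weights each marker alike and was chosen after the data had been seen, 7 members were higher and 9 lower. Over all genes, 959 were higher and 298 lower there. Col4a1 kept its call there (-0.47, edgeR adjusted p = 0.000703), and Col3a1, Col4a2, Col6a2, Col14a1 and Serpinh1 were called lower as well. The calls of Lox, Col16a1, Col18a1 and Col27a1 held under both, but with the sum the log2 fold change of Lox shrank from -1.32 to -0.66 and that of Col18a1 grew from 0.54 to 1.04. P4ha1 kept its call under the second and lost it under the first, at -0.15 and an adjusted p of 0.211 in edgeR's test. Because the Schwann markers and age vary together, what each contributes cannot be told apart.

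The 11 markers of fibroblasts and meningeal cells summed to 73.7 to 188.5 CPM in young, 71.4 to 135.9 CPM in old and 66.6 to 123.3 CPM in repopulated cord. In old against young 3 fell (Clec3b -0.90 ± 0.15, Slc13a4 -1.001 ± 0.24, Slc6a13 -0.57 ± 0.17), and 5 were lower in repopulated against young. With this sum as a covariate 8 members were higher and 3 lower in old against young, Lox among the latter, while Col4a1 was not called (-0.29, edgeR adjusted p = 0.236). Over all genes, 1045 were higher and 211 lower with this covariate. Of the 10 mural cell markers tested none passed, and of the 12 endothelial markers Pecam1 rose by 0.17 ± 0.05. Microglia markers summed to 163.6 to 220.3 CPM in young, 244.9 to 310.6 CPM in old and 272.4 to 367.5 CPM in repopulated cord, and 3 of 5 were higher in old cord. The part of these cells in the members' changes was not tested beyond these covariates.

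**Figure D4:**
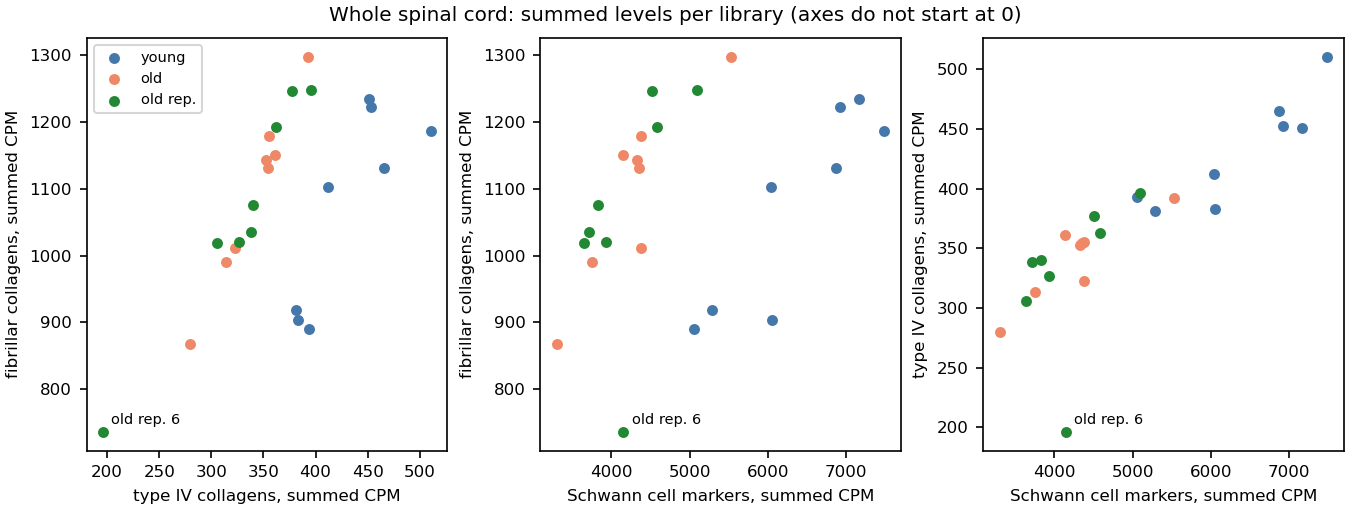
Summed CPM per cord library of the 11 fibrillar chains, the 6 type IV chains and the 10 Schwann cell markers, plotted against each other (axes do not start at 0). The median Schwann and type IV sums are highest in young cord, the 3 groups overlap on all 3 sums, and repopulated replicate 6 lies apart at 735.8 and 196.1 CPM.

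Other genes of the collagen pathway were taken from 6 fixed lists of 73 genes. Of the 13 other genes of procollagen folding and export none passed in old against young cord, the nearest by p being Fkbp10, a prolyl isomerase (0.28 ± 0.11, edgeR adjusted p = 0.203), followed by the sugar transferase Colgalt1 (0.08 ± 0.04), Tmem38b (0.16 ± 0.10) and the prolyl 3-hydroxylase P3h2 (0.29 ± 0.17). Of 8 propeptide cleavage genes 1 fell, the protease Tll1, from 11.7 ± 1.44 to 8.86 ± 0.862 CPM (-0.40 ± 0.11, edgeR adjusted p = 0.0267). Tll2, Adamts2 and Bmp1 had log2 fold changes of -0.22 ± 0.08, -0.24 ± 0.10 and -0.09 ± 0.04 and did not pass.

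Proteins that bind or flank fibrils changed in both directions, 3 of 18 up and 3 down. Postn (periostin), which binds collagen and promotes its cross-linking, rose from 8.16 ± 3.98 to 24.5 ± 5.198 CPM (1.59 ± 0.22), Thbs2, a thrombospondin, from 27.4 ± 2.94 to 61.7 ± 10.01 CPM (1.17 ± 0.12) and Lum (lumican), a small proteoglycan that shapes fibrils, from 24.3 ± 6.27 to 49.3 ± 10.4 CPM (1.02 ± 0.16). Mfap4, a microfibril protein, fell from 5.35 ± 1.76 to 1.56 ± 0.522 CPM (-1.78 ± 0.22). Eln (elastin), a second substrate of Lox, fell from 24.5 ± 4.40 to 17.8 ± 1.74 CPM (-0.45 ± 0.09), and Omd (osteomodulin) from 2.97 ± 0.844 to 1.77 ± 0.397 CPM (-0.74 ± 0.20).

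Of 16 basement membrane partners 1 rose, the laminin chain Lama5 (0.37 ± 0.10, from 40.8 ± 4.90 to 52.7 ± 5.13 CPM). The perlecan gene Hspg2 (0.25 ± 0.15) and the laminin chain Lama1 (-0.14 ± 0.10) did not pass. Of 10 collagen receptors tested 1 rose and 1 fell. Lair1, an inhibitory collagen receptor of leukocytes and microglia, rose from 8.27 ± 1.06 to 14.7 ± 1.63 CPM (0.83 ± 0.10), and the integrin chain Itga10 fell by 0.27 (SE 0.07), while the kinase receptor Ddr1 (0.10 ± 0.05) and Adgrg1 (-0.11 ± 0.06) did not pass. Of 7 collagen-degrading enzymes 1 rose, Mmp2, a gelatinase, from 17.8 ± 1.99 to 25.7 ± 5.08 CPM (0.53 ± 0.10). Mmp8 (0.69 ± 0.31), Mmp9 (-0.23 ± 0.10) and Mmp14 (0.23 ± 0.15) did not pass. In repopulated against old cord none of the genes tested in these 6 lists passed.

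In sorted microglia 36 members passed the filter on low counts, most of them collagens at low levels. The collagens with the highest levels in young microglia were Col27a1 (112.5 ± 31.7 CPM), Col15a1 (65.6 ± 5.71 CPM) and Col6a3 (32.3 ± 3.77 CPM), followed by Col4a1 (9.35 ± 6.504 CPM) and Col4a2 (6.92 ± 4.34 CPM). Plod1, P4ha1 and Plod3 were abundant, at 528.5 ± 50.5, 534.4 ± 66.4 and 440.1 ± 32.2 CPM in young microglia, against 61.8 ± 5.02, 70.8 ± 1.49 and 41.8 ± 2.06 CPM in young cord. In contrast Serpinh1 was at 7.11 ± 2.48 CPM and Col1a2 at 2.15 ± 0.600 CPM in young microglia.

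Between old and young microglia 3 members rose and 4 fell (8.33% and 11.1% of 36, where 11% and 10.7% of all 14382 genes tested were called, so these shares lay near the background). Lox was near 0 in young microglia, running from 0.252 over 1.04 to 3.05 CPM. It ran from 15.4 over 18.02 to 37.7 CPM in old and from 23.0 over 26.0 to 33.5 CPM in repopulated microglia. All 16 libraries of old mice lay above all young ones, with a log2 fold change of 4.02 ± 0.28 in old and 4.40 ± 0.28 in repopulated microglia (adjusted p = 1.12e-12 and 8.09e-14, edgeR's quasi-likelihood test). In whole cord Lox fell in the same comparison.

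Col6a3, a chain of collagen VI, ran from 25.0 over 33.4 to 37.1 CPM in young, from 71.1 over 83.1 to 98.8 CPM in old and from 43.8 over 63.2 to 92.2 CPM in repopulated microglia. Again every old and repopulated library lay above the young ones, and it rose by 1.38 ± 0.13 in old microglia (edgeR adjusted p = 1.09e-09). Its partner chains Col6a1 and Col6a2 had means of 0.118 ± 0.155 and 0.51 ± 0.399 CPM in young microglia, and of 0.592 ± 0.672 and 0.959 ± 1.18 CPM in old ones. Col14a1 rose from 5.32 ± 1.04 to 11.0 ± 2.89 CPM (1.05 ± 0.27, edgeR adjusted p = 0.00425).

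The 3 abundant enzymes fell in old microglia, Plod1 by 0.54 (SE 0.07), P4ha1 by 0.52 (SE 0.09) and Plod3 by 0.32 (SE 0.06) on the log2 scale, and Col27a1 fell by 0.65 (SE 0.20, edgeR adjusted p = 0.015). Old Plod1 and Plod3 libraries all lay below the young ones. With no overlap, 2 members were higher and 2 lower in old microglia, where 4.12% and 3.05% of all genes had none. No member was called between repopulated and old microglia, where 9.05% and 7.2% of all genes were called higher and lower, and none had libraries without overlap, against 2.09% and 0.966% of all genes. At an unadjusted p under 0.05 there were 6 members, again without a count over all genes. DESeq2's Wald test called 1 member higher and 1 lower, where it called 1397 and 1306 of 12987 genes. In repopulated against young microglia 2 members were higher (Lox and Col6a3) and 4 lower (Plod1, P4ha1, Plod3 and the transmembrane chain Col25a1), where 16.1% and 16.5% of all genes were called. With no overlap, 2 were higher and 1 was lower, against 7.2% and 5.86% of all genes.

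Sorted microglia also held markers of collagen-making cells. The 12 endothelial markers, of cells that lay type IV collagen in vessel walls, summed to 109.8 to 295.5 CPM in young, 154.0 to 467.2 CPM in old and 53.8 to 264.4 CPM in repopulated microglia, against 422.7 to 692.7 CPM in cord. The library with the highest endothelial sum of each group was also its highest for Col4a1 and Col4a2, at 22.3, 28.4 and 17.5 CPM of Col4a1, and their part in these levels was not tested. The 11 fibroblast and meningeal markers summed to 5.03 to 16.1 CPM in young, 9.54 to 24.2 CPM in old and 2.91 to 19.1 CPM in repopulated microglia, and Dpt was listed at 0 in all old and all repopulated libraries. The 11 mural cell markers summed to 28.4 to 130.6, 47.2 to 180.1 and 14.5 to 85.6 CPM, and the 10 Schwann markers to 3.00 to 9.27, 4.12 to 21.4 and 6.67 to 29.5 CPM, with Pmp2 at 0 in every library. Cspg4, a marker of oligodendrocyte precursors that pericytes also make, had means of 2.85 ± 1.80, 33.1 ± 6.17 and 35.6 ± 11.6 CPM in the young, old and repopulated groups, while the other precursor markers Pdgfra and Gpr17 had means of 0.771 CPM or less in each group. Lox was higher in repopulated than in old libraries at the median. The median sums of fibroblast, mural and endothelial markers were lower in repopulated libraries. Those of the Schwann markers (14.6 in old and 17.6 CPM in repopulated) and of the precursor markers (32.9 and 35.7 CPM) were higher. The part of other cells in the level of Lox was not tested.

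Old against young changes differed between cord and microglia for 12 of 55 members tested, where 20.5% of 19110 genes were called (edgeR interaction contrast over 48 libraries, a comparison added after the values had been seen). For Lox the log2 change in cord minus that in microglia was -5.16 ± 0.32 (SE, edgeR adjusted p = 3.71e-17). For Col27a1, which rose in cord and fell in microglia, it was 1.38 ± 0.24 (edgeR adjusted p = 2.51e-05). In repopulated against young 14 of 55 differed (29.6% of all genes), and in repopulated against old 5 of 55 (11% of all genes). These shares lay near or below those of all genes. The last 5 were Col9a1, Col11a1, Col26a1, Col6a5 and Loxl2, all at or near 0 in most microglia libraries. Col6a5 was at 5.105 CPM in old microglia replicate 2 and at 0.368 CPM or less in the rest of that group. Col9a1 was at 1.719 CPM in repopulated microglia replicate 3 and at 0 in the rest of that group. The tissues differ in region as well as in cell content, since the microglia came from brain.

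**Figure D5:**
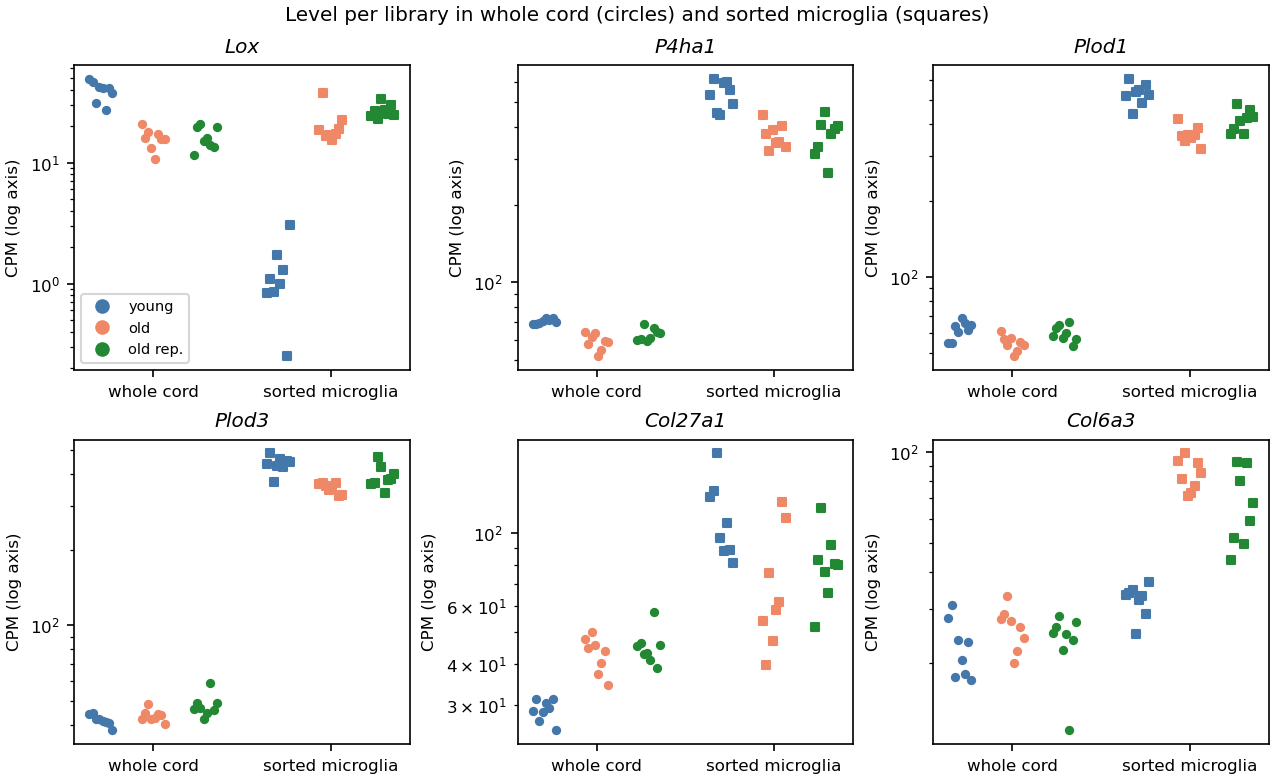
CPM on a log axis of 6 members in each library of whole cord (circles) and sorted microglia (squares), by group. Lox lies lower in old than in young cord and higher in old than in young microglia, while Plod1, Plod3 and P4ha1 lie far higher in microglia than in cord.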

How the data were processed

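RNA was sequenced from 48 mouse libraries of whole spinal cord and sorted brain microglia, as polyadenylated RNA with a TruSeq kit that does not mark strand, per the labels' protocols. STAR 2.5.2b and the build GRCm38.p5 appear in the submitters' processing notes without their roles. How reads were counted, and against which annotation, is not given in the sources used here. Counts, as deposited by the authors, are whole reads per gene without normalisation and were tested as they are. Deposited TPM values matched a recalculation from counts and gene lengths to within 0.0005, and served for levels between genes and 1 alternative. The FPKM table was not used here. No 2 libraries of a group looked like copies of one another (168 pairs, chi-square per gene 3.4 to 196.04).

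Counts were tested per tissue over 24 libraries with edgeR 4.0.16 (R 4.3.3): TMM scaling, filterByExpr (minimum count 10, minimum total 15), quasi-likelihood test, Benjamini-Hochberg adjustment over all genes tested, calls at an adjusted p under 0.05. Fold changes use a prior count of 0.125. Levels per length are means of TPM. Chain ratios were tested by exact permutation (scipy 1.17.1), Python 3.11.15. Alternatives were DESeq2 1.42.0 (Wald test, and size factors in edgeR), limma 3.58.1 on log2(TPM + 1), total-count scaling, no filter, a stricter filter (1 CPM in 8 libraries), marker sums as covariates (log2 with 0.1 CPM added), only the groups compared, the replicate number as a block, and each cord library left out in turn. The interaction between tissues and the mean log2 level of the Schwann markers as a covariate were added after the data had been seen. The edgeR step was tested on simulated data: for old against young cord (18149 genes) 70% of those given a log2 change of 0.5 and 91% of those given 1 were recovered, and for microglia (13811 genes) 50% and 70%.

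Members and gene lists were chosen with earlier results of these data known. Values by library are given, in each of the 4 classes, for the 3 members with the highest mean TPM in cord and for up to 5 called members with the smallest adjusted p, and for microglia for members called there. From each pathway list the 4 genes with the smallest p in old against young cord are given, and some genes of the lists are not reported here. Eln, Omd, Clec3b, Slc13a4, Slc6a13, Pecam1, Egr2 and members outside the rule were named after their values were seen. Replicate numbers were not taken to pair the libraries, as the closing section gives.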

Additional observations from a re-analysis of the deposited data

Results flagged for a closer look

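One library lay farther from the other 7 of its group than Dixon's 95% limit allows in 11 of 102 groups of 8 values checked, where chance alone gives about 1 in 20. Of these, 7 were repopulated cord replicate 6. It was the lowest for Col4a1 (86.43 CPM), Col4a5 (7.302 CPM), the fibrillar sum (735.8 CPM) and the type IV sum (196.1 CPM), and the highest for Col27a1 (57.48 CPM), Col26a1 (13.98 CPM) and Plod3 (58.97 CPM). The others were Col16a1 in old cord replicate 3 (131.7 CPM, the highest), Lox in old microglia replicate 2 (37.69 CPM), and Col25a1 in young microglia replicate 8 (3.581 CPM) and in repopulated microglia replicate 2 (0.997 CPM), the last 3 each the highest.

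Changes that differed between the tissues are given as the log2 change in cord minus that in microglia. They are listed for members that reached a group mean of 1 CPM in both tissues and were called in at least 1 tissue. Members called in neither tissue are left out, such as Loxl3 (0.708) and Col15a1 (0.458) in old against young. In old against young they differed for Lox (-5.164), Col14a1 (-1.376), Col6a3 (-0.994), Col27a1 (1.384), Plod3 (0.533), Plod1 (0.528) and P4ha1 (0.425). In repopulated against young they differed for Lox (-5.49), Col14a1 (-1.16), Col6a3 (-0.789), Col25a1 (2.025), Col27a1 (1.305), P4ha1 (0.553), Plod3 (0.546) and Plod1 (0.493).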

How the results depend on the processing

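In old against young cord, Lox, Col16a1, Col18a1 and Col27a1 kept direction and call under all alternatives run, though not their size: with the Schwann sum Lox was at -0.66 and Col18a1 at 1.04. Leaving out each cord library in turn gave 5 to 7 members higher and 3 to 8 lower in old against young, 0 in repopulated against old, 7 to 9 higher and 5 to 7 lower in repopulated against young, and 12 to 14 chain ratio differences. The count of 8 lower came without repopulated replicate 6, where 681 of 18401 genes were called lower. The Schwann sum as a covariate gave 13 higher and 1 lower in old against young, where 1109 and 179 of 18271 genes were called. In repopulated against young it gave 16 higher and 1 lower, where 1424 and 321 genes were called. Among calls made without this covariate, it turned the direction of Col4a1 in both comparisons (0.022 and 0.013). In repopulated against young it also turned Col4a2 (0.016) and Col14a1 (0.012). Members not called without it turned too, with Col1a2, Col3a1, Col6a2 and Serpinh1 among them in old against young. The mean log2 level of the Schwann markers as a covariate gave 9 lower in old against young. The fibroblast sum gave 1 lower in repopulated against young. Limma on log2(TPM + 1) gave 2 lower in old, where it called 92 of 18271 genes lower. In repopulated against young it gave 3 higher and 3 lower, where it called 826 and 204 genes. A fit with only the groups compared gave 7 lower in old against young, where 674 of 17828 genes were called lower. The cause of these shifts was not tested.

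In repopulated against old microglia, DESeq2's Wald test called 1 higher and 1 lower, no filter 1 and 1, total-count scaling 1 lower and limma 7 lower. Over all genes, DESeq2 called 1397 higher and 1306 lower of 12987, and no filter 1427 and 1120 of 22115. Of 14382 genes, total-count scaling called 2779 lower and limma 4284. Limma called 7 lower in repopulated against young microglia, where it called 6141 of 14382 genes lower. The call of Plod3 there was lost in 6 alternatives.

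Same-numbered libraries did not all deviate together: correlations ran from -0.493 to 0.295 in old against young, from -0.324 to 0.072 in repopulated against old and from -0.315 to 0.431 in repopulated against young cord. In the last, 4 of 8 were above 0.1, and replicates 1 and 5 correlated best with their own number. In no comparison was every pair above 0.1, so the numbers were not taken to pair the libraries. With the replicate block, 5 members were higher and 4 lower in old against young cord, 9 and 6 in repopulated against young, and 8 of 21 chain ratio differences were called by sign flips within numbers. Over all genes the block gave 777 higher and 176 lower in old, and 1102 and 306 in repopulated against young cord.

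Precision was lower for the collagens of microglia, where the median standard error of log2 fold changes of old against young was 0.94 for fibrillar, 0.73 for type IV and 0.61 for other chains, against 0.12, 0.12 and 0.13 in cord.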
